A study of Mus musculus with 15 samples.

Results

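The miR-99, miR-100 and miR-125 families were followed through 9 mature miRNA names, taken by name from every library: mmu-miR-99a-5p, mmu-miR-99b-5p, mmu-miR-99b-3p, mmu-miR-100-5p, mmu-miR-125a-5p, mmu-miR-125a-3p, mmu-miR-125b-5p, mmu-miR-125b-1-3p and mmu-miR-125b-2-3p, written below without their species prefix. They were 9 of 1558 names and held 1054415 of 29911481 reads (3.53%), and each had reads in all 15 libraries. The libraries were made from mouse tissue and embryo RNA of a commercial panel, 1 library each, by AQ-seq, a protocol with randomized adapters that is meant to lower ligation bias. The nervous group held brain, spinal cord and eye (n = 3), and the embryo group held embryos of 11, 15 and 17 days (n = 3). The 9 non-nervous tissues were heart, kidney, liver, lung, salivary gland, smooth muscle, spleen, stomach and testis. The labels give no strain, sex, tissue age, treatment or number of animals, and the 17-day embryo carries another day in its source field than in its title, which was used here. A p-value here therefore sets a difference against how tissues or stages within a group vary, which may be partly technical, and says nothing of animals.

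A miRNA hairpin is cut into a 5p and a 3p strand, and usually 1 of them is kept in Argonaute, where its seed, bases 2 to 8, pairs with target mRNAs. miR-125 is the vertebrate relative of lin-4, which with let-7 was found as a regulator of developmental timing in Caenorhabditis elegans. In mammals the genes of the miR-99 and miR-100 family, let-7 and miR-125 lie together in clusters. miR-99 and miR-100 are known for acting on the growth kinase mTOR, miR-125b is abundant in brain, and the RNA-binding protein LIN28 holds back the maturation of let-7 hairpins in early embryos.

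The mature sequences are shown because the families are defined by their seeds, which stand in capitals. They are RefSeq sequences of the mouse build GRCm38.p6, written 5′ to 3′.
miR-99a-5p: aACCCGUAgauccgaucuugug
miR-99b-5p: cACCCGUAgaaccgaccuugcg
miR-100-5p: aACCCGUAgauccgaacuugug
miR-125a-5p: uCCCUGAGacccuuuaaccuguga
miR-125b-5p: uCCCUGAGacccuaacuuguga
miR-351-5p: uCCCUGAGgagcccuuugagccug
The first 3 share the seed ACCCGUA, and miR-99a-5p and miR-100-5p differ at 1 base, U16A from miR-99a-5p to miR-100-5p, counted from 1 at the 5′ end. miR-99b-5p differs from miR-99a-5p at 4 bases, written from miR-99a-5p to miR-99b-5p as A1C, U11A, U16C and U21C. How the authors' counting treated reads that fit more than 1 of such near-identical names is not given in the sources used here. miR-125a-5p and miR-125b-5p share their first 13 bases, and miR-351-5p, which is no member and lies on the X chromosome, shares the seed CCCUGAG with them.

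Among the members the 3p strands do not share a seed, although miR-99b-3p has its seed in common with miR-99a-3p, which is no member. The sequences of the member 3p strands are shown, again with bases 2 to 8 in capitals.
miR-99b-3p: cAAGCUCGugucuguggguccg
miR-125a-3p: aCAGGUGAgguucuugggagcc
miR-125b-1-3p: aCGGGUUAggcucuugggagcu
miR-125b-2-3p: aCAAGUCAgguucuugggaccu
The miR-125b 3p strands differ at 5 bases, given from miR-125b-1-3p to miR-125b-2-3p as G3A, G4A, U7C, C11U and G20C, 3 of them inside the seed. They tell the hairpins Mir125b-1 and Mir125b-2 apart, whereas their 5p strands are identical and are counted as the single name miR-125b-5p.

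The hairpins of the members lie in 3 clusters on the plus strand, with coordinates from RefSeq on GRCm38.p6; miR-125b-5p comes from 2 of these clusters and each other member from 1. Mir99b, Mirlet7e and Mir125a lie within 692 bases at chr17:17830188-17830879; in GENCODE M21 Mir99b and Mirlet7e fall in an intron of the protein-coding gene Spaca6 and Mir125a overlaps an exon of it. Mir100, Mirlet7a-2 and Mir125b-1 spread over 50578 bases at chr9:41531425-41582002, in introns of the non-coding gene 3110039I08Rik. Mir99a, Mirlet7c-1 and Mir125b-2 spread over 47408 bases at chr16:77598936-77646343, in introns of the non-coding gene Mir99ahg. Hairpins are shown for the cluster members whose arms are compared most closely below, with the 5p and then the 3p strand in capitals.
Mir100: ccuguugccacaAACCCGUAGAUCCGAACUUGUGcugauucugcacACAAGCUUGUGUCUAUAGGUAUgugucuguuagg
Mir125a: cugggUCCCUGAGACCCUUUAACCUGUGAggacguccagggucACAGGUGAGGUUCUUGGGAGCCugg
The Mir100 hairpin spans chr9:41531425-41531504 and the Mir125a hairpin chr17:17830812-17830879.

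Libraries held between 148052 reads (testis) and 3161463 reads (brain). Levels are given as CPM, the reads of a name per 1000000 reads, after TMM scaling, a factor per library that ran from 0.449 in heart to 2.25 in the 11-day embryo, so that levels depend on the scaling while shares and ratios within a library do not. Marker miRNAs were highest in the labelled tissue for liver, heart, spleen, testis, eye and, with the oligodendrocyte markers, spinal cord. In the smooth muscle library the 3 gut and kidney epithelium markers summed to 489998 CPM, the highest of all libraries, and the smooth muscle markers miR-143-3p and miR-145a-5p were higher in stomach. In bulk tissue, fewer cells of a type and less RNA per cell cannot be told apart.

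The 9 names together made up 5.85% of reads in brain, 7.85% in spinal cord and 4.73% in eye, and 4.66%, 4.08% and 4.26% in the embryos of 11, 15 and 17 days. In the non-nervous tissues they made up between 0.863% (liver) and 4.82% (stomach), with a median of 1.78% (lung). Among these tissues only stomach lay above eye or above any embryo. miR-125b-5p was the most abundant member in all 15 libraries.

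**Figure D1:**
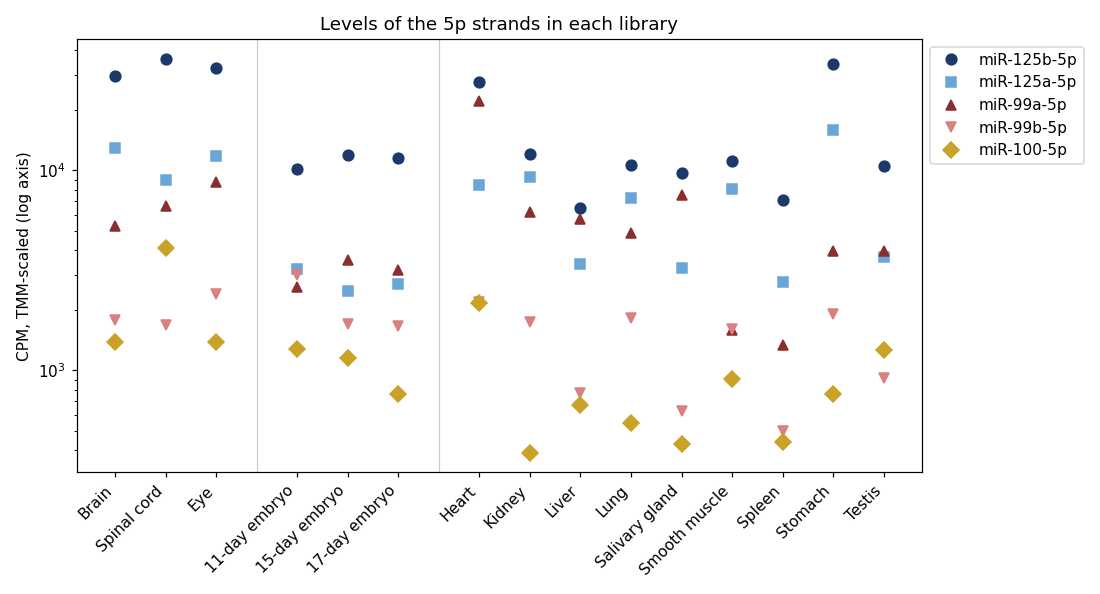
TMM-scaled CPM (log axis) of the 5 5p strands in each library, 1 point per library and name, with nervous tissues at the left, embryos in order of days in the middle and non-nervous tissues at the right. miR-125b-5p is the top point in every library, and miR-99a-5p comes closest to it in liver, with 5710 CPM against 6458 CPM, and is highest in heart, with 22343 CPM.

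miR-125b-5p was at 29802 CPM in brain, 36215 CPM in spinal cord and 32500 CPM in eye, and at 10165, 11946 and 11487 CPM in the embryos of 11, 15 and 17 days. The non-nervous levels started at 6458 CPM (liver), with a median of 10605 CPM (lung), and reached 34145 CPM (stomach). The nervous libraries all lay above 8 of the 9 non-nervous tissues, and stomach lay above brain and eye. In unscaled CPM stomach (28855) lay above eye (26809) but below brain (33678) and spinal cord (49057). The log2 difference, nervous over non-nervous, was 1.19 ± 0.50 (SE), with an adjusted p of 0.067 in edgeR's quasi-likelihood test. This missed the threshold of 0.05, while DESeq2 passed it (adjusted p = 0.039). With total counts the log2 difference was 1.68 and passed (edgeR adjusted p = 0.017).

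miR-125a-5p was at 13008 CPM in brain, 8939 CPM in spinal cord and 11842 CPM in eye, and at 3219, 2493 and 2718 CPM in the embryos. The non-nervous range went from 2771 CPM (spleen) through a median of 7306 CPM (lung) to 15896 CPM (stomach). All 3 embryos were under that median, and the ranges overlapped. The log2 difference, embryo over non-nervous, was -1.30 ± 0.58 (SE) and did not pass (edgeR adjusted p = 0.079), while DESeq2 gave -1.25 and passed (adjusted p = 0.024).

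miR-99a-5p was at 5296 CPM in brain, 6638 CPM in spinal cord and 8752 CPM in eye, and at 2610, 3570 and 3193 CPM in the embryos. Its non-nervous levels spread the most among the 5p members, over 16.7-fold, with 1341 CPM in spleen, a median of 4869 CPM (lung) and 22343 CPM in heart. miR-99b-5p, the cluster mate of miR-125a, was at 1779, 1688 and 2411 CPM in brain, spinal cord and eye, and at 2984, 1706 and 1668 CPM in the embryos. Its non-nervous range was 498 CPM (spleen) to 2191 CPM (heart), with a median of 1610 CPM, and only the 11-day embryo and eye lay above it.

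miR-100-5p was at 4084 CPM in spinal cord, and at 1392 CPM in both brain and eye. The embryos had 1282, 1148 and 759 CPM, and the non-nervous tissues 388 CPM (kidney) to 2186 CPM (heart), with a median of 675 CPM. Spinal cord alone lay above every non-nervous tissue, while brain and eye lay below heart. In unscaled CPM brain (1573) and eye (1148) lay above heart (982), and testis (1952) was the highest non-nervous tissue. The log2 difference, nervous over non-nervous, was 1.44 ± 0.54 (SE; edgeR adjusted p = 0.045). Without spinal cord it was 0.67 (edgeR adjusted p = 0.39), and 12 of the 15 fits that left out 1 library lost this call.

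In the level fits, 2 of the 9 members were called higher in nervous than in non-nervous tissues and 0 lower, where 41% of all 693 names tested were called, 28.4% higher and 12.6% lower. The members called were miR-100-5p and miR-125b-1-3p, and the median log2 difference of the members was 0.71, against -0.21 over all names tested. In embryos 2 of the 9 members were higher than in non-nervous tissues, miR-99b-3p and miR-125b-1-3p, and 0 were lower, where 44.2% of names were called, 27% higher and 17.2% lower. The member median was -0.08, against 0.10 over all names. In both comparisons the share of members called was below that of all names. The embryo comparison moved with the scaling: with total counts and no scaling factor, the median over all names was 1.38, 4 of the 9 members were called higher where 41.4% of all names were, and the log2 differences of miR-99a-5p (0.51), miR-125a-5p (0.09), miR-125a-3p (1.41), miR-125b-5p (1.03) and miR-125b-2-3p (1.42) were positive, where TMM gave negative ones. Both comparisons use the same 9 non-nervous libraries.

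The make-up of the miR-99 and miR-100 seed family is given as the share of each name in its 5p reads, for single libraries. miR-99a-5p made up 62.5% of these reads in brain, 53.5% in spinal cord and 69.7% in eye, and 38.0%, 55.6% and 56.8% in the embryos. In non-nervous tissues its share ran from 38.7% in smooth muscle through a median of 67.2% in lung to 87.7% in salivary gland. The embryos lay within this range, except that the 11-day embryo was just under it.

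miR-99b-5p made up 21.0%, 13.6% and 19.2% of the same reads in brain, spinal cord and eye, and 43.4%, 26.5% and 29.7% in the embryos. The lowest non-nervous share was 7.30% (salivary gland), the median 21.0% (kidney) and the highest 39.2% (smooth muscle). The embryo mean was 33.2 ± 9.0% and the non-nervous mean 19.7 ± 10.5% (SD, n = 3 and 9), a difference of 13.5 percentage points that did not pass (exact permutation test, two-sided p = 0.073, adjusted over 10 comparisons 0.145). Salivary gland and heart had little miR-99b-5p and much miR-99a-5p, and smooth muscle held both names at nearly equal shares.

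miR-100-5p made up 16.4% in brain, 32.9% in spinal cord (95% exact Clopper-Pearson interval 32.4 to 33.4%) and 11.1% in eye, and 18.6%, 17.9% and 13.5% in the embryos. Its non-nervous share ran from 4.66% in kidney (4.30 to 5.03%) through a median of 9.42% in liver to 22.1% in smooth muscle. There were 1.63 miR-99a-5p reads per miR-100-5p read in spinal cord and 17.5 in salivary gland, although the strands differ by a single base. All intervals given cover counting error alone, because PCR copies are not separate molecules.

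**Figure D2:**
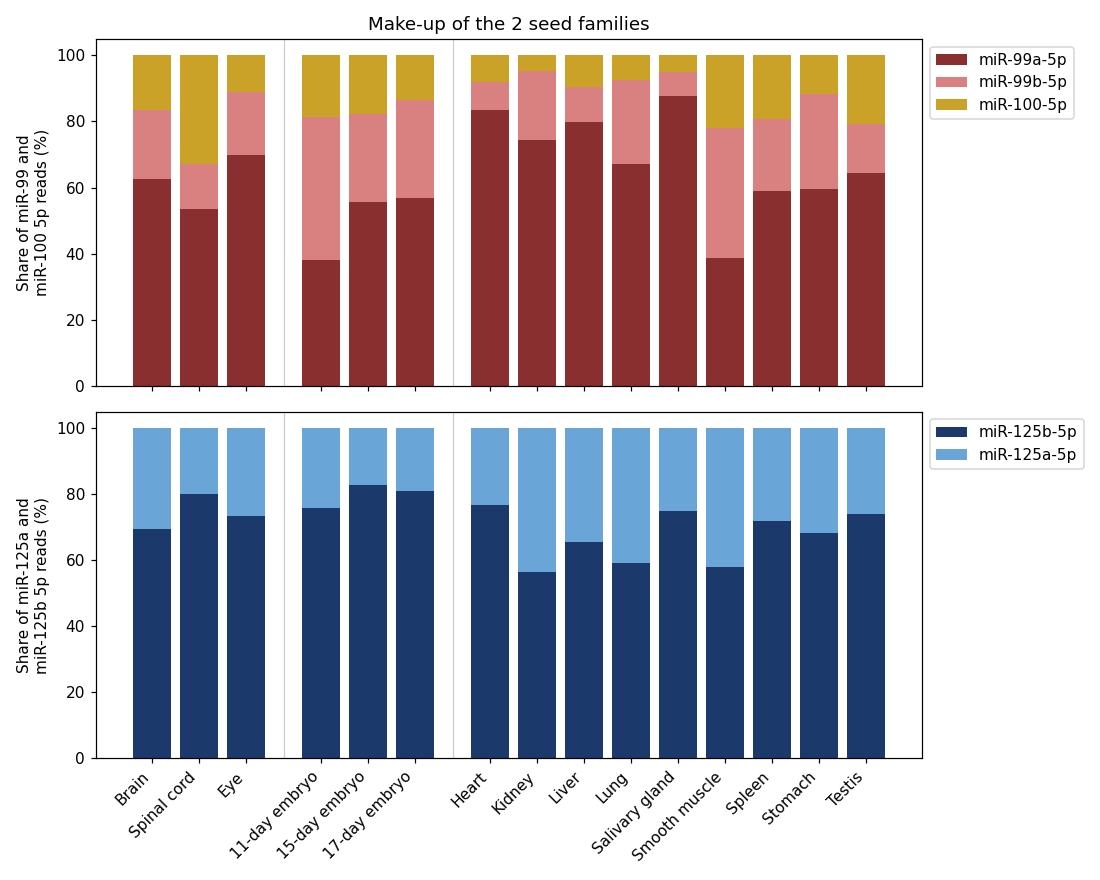
Make-up of the 5p reads of each seed family per library, in percent of reads; the upper panel splits miR-99a-5p, miR-99b-5p and miR-100-5p, and the lower panel miR-125b-5p and miR-125a-5p, with nervous tissues, embryos and non-nervous tissues from left to right. miR-99a-5p takes 87.7% in salivary gland and 38.0% in the 11-day embryo, and miR-125b-5p is the larger part in every library.

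Within the miR-125 pair, miR-125a-5p made up 30.4% of reads in brain, 19.8% in spinal cord and 26.7% in eye, and 24.1%, 17.3% and 19.1% in the embryos. In non-nervous tissues the share was lowest in heart (23.4%) and highest in kidney (43.5%), with a median of 31.8% in stomach. The 15- and 17-day embryos and spinal cord lay below every non-nervous tissue, and the 11-day embryo lay above heart. The mean was 20.2 ± 3.5% in embryos and 32.8 ± 7.8% in non-nervous tissues (SD, n = 3 and 9), a difference of -12.7 percentage points (exact permutation test, two-sided p = 0.018, adjusted 0.091). Nervous tissues averaged 25.6 ± 5.4% (SD, n = 3), -7.17 points from the non-nervous mean (exact permutation test, two-sided p = 0.182, adjusted 0.303).

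miR-351-5p, which carries the miR-125 seed but is encoded apart from the clusters, added 8.34%, 9.97% and 13.3% of the reads with that seed in the embryos of 11, 15 and 17 days. It gave 0.114%, 0.104% and 0.237% in brain, spinal cord and eye, and from 0.218% (stomach) to 4.11% (lung) in non-nervous tissues. Its level was 1218, 1598 and 2184 CPM in the embryos, above all 9 non-nervous tissues, of which lung was the highest with 767 CPM. Over non-nervous tissues the log2 difference was 2.56 ± 0.58 in embryos (SE; edgeR adjusted p = 0.0021) and -2.07 ± 0.74 in nervous tissues (SE; edgeR adjusted p = 0.035). The embryo call held with total counts and with no filter on low counts, and the nervous call with neither (edgeR adjusted p = 0.090 and 0.125).

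The 3p strands show how much of miR-125b came from each of its hairpins, as far as 3p reads stand for them. miR-125b-1-3p, from chromosome 9, made up 28.8% of both miR-125b 3p strands in brain, 50.3% in spinal cord and 21.5% in eye. It made up 67.2% (64.0 to 70.3%) in the 11-day embryo, 45.7% in the 15-day embryo and 39.7% in the 17-day embryo. The counting intervals did not overlap between stages, but the lower bound at 15 days (42.69%) nearly touched the upper bound at 17 days (42.68%). In non-nervous tissues the share ran from 2.5% in liver (2 of 80 reads, 0.304 to 8.74%) through 20.3% in kidney to 47.1% in testis. The testis share rests on 17 reads. Heart, lung and salivary gland were low as well, with 9.46%, 16.04% and 9.52%.

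For the test, testis was left out for having fewer than 20 such reads. The embryo mean was then 50.9 ± 14.5% and the non-nervous mean 22.4 ± 16.1% (SD, n = 3 and 8), a difference of 28.5 percentage points (exact permutation test over 165 splits, two-sided p = 0.048, adjusted 0.145). Nervous tissues averaged 33.5 ± 14.9% (SD, n = 3), 11.1 points over the non-nervous mean (exact permutation test, two-sided p = 0.327, adjusted 0.409).

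**Figure D3:**
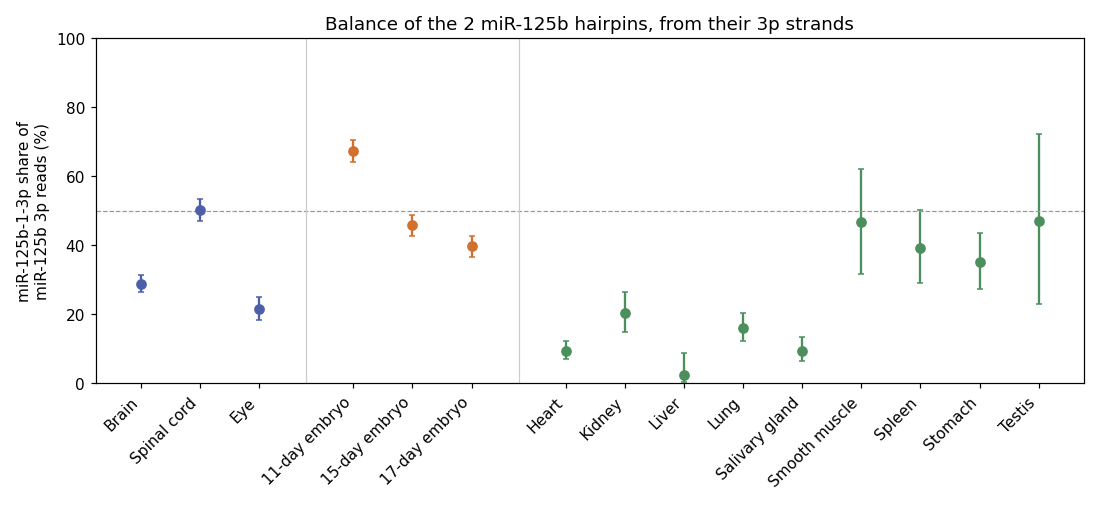
Share of miR-125b-1-3p among the reads of both miR-125b 3p strands in each library, in percent, with exact 95% intervals for counting error; the dashed line marks equal shares. The 11-day embryo is highest at 67.2%, liver lowest at 2.5%, and testis and smooth muscle have wide intervals.

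As a level, miR-125b-1-3p was at 105 CPM in brain, 168 CPM in spinal cord and 65.0 CPM in eye, and at 173, 117 and 75.6 CPM in the embryos. Among non-nervous tissues liver was lowest with 2.29 CPM, lung in the middle with 26.4 CPM and stomach highest with 65.4 CPM. All 3 embryos lay above every non-nervous tissue, and brain and spinal cord did too, while eye lay just under stomach. Over non-nervous tissues the log2 difference was 1.98 ± 0.59 in nervous tissues (SE; edgeR adjusted p = 0.015) and 2.09 ± 0.59 in embryos (SE; edgeR adjusted p = 0.0088). The nervous call was lost without brain or without spinal cord, and the embryo call without the 11-day embryo (edgeR adjusted p = 0.091). The summed neuron markers miR-124-3p, miR-9-5p and miR-128-3p were also higher in both groups than in non-nervous tissues. They ran from 83732 to 185401 CPM in nervous tissues and 18815 to 37424 CPM in embryos, against 296 to 2444 CPM in non-nervous tissues. Among nervous tissues the sum was lowest in spinal cord and highest in brain, and miR-125b-1-3p was highest in spinal cord and lowest in eye. Of the 3 markers, miR-124-3p alone was lowest in spinal cord, with 14923 CPM against 111658 CPM in eye. miR-9-5p and miR-128-3p were lowest in eye, with 31163 and 1821 CPM against 57343 and 11466 CPM in spinal cord. The part of these markers in the result was not tested.

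miR-125b-2-3p, from chromosome 16, was at 260, 166 and 237 CPM in brain, spinal cord and eye, and at 84.4, 138 and 115 CPM in the embryos. Non-nervous tissues ran from 24.4 CPM (smooth muscle) through 105 CPM (kidney) to 414 CPM (heart), and neither comparison passed (edgeR adjusted p = 0.33 in nervous tissues and 0.87 in embryos). Across the 15 libraries its log2 CPM followed that of its cluster mate miR-99a-5p with a Pearson r of 0.85 (Spearman rho 0.77), whereas miR-125b-1-3p and miR-99a-5p, from different clusters, gave 0.01 (rho -0.08). On chromosome 9, miR-100-5p and miR-125b-1-3p gave 0.60 (rho 0.67), against 0.38 (rho 0.41) for miR-100-5p and miR-125b-2-3p. These correlations are descriptions over single libraries of different tissues that share 1 scaling.

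The 5p strand was the major product of every hairpin in every library. For mir-99b its lowest share was 93.6%, in the 11-day embryo, and for the other hairpins the 3p share stayed under 4%. Because the miR-125b 5p strand cannot be split, mir-125b was taken as 1 unit with both 3p strands, and the other arms of mir-99a and mir-100 are miR-99a-3p and miR-100-3p, which are not members.

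In embryos 4 of the 5 hairpins, mir-99b, mir-100, mir-125a and mir-125b, had a lower 5p share than in non-nervous tissues, where 20.1% of the 239 hairpins tested were called, 10.9% with a lower and 9.21% with a higher 5p share. In nervous tissues 0 of 5 were called by edgeR, where 5.86% of hairpins were, 4.6% with a lower and 1.26% with a higher 5p share; the unadjusted p of the 5 ran from 0.067 to 0.999, and limma called 0 as well. The median log2 odds difference over all hairpins was 0.07 in embryos, against -0.91 to -1.50 in the 5 hairpins followed here, called or not. Leaving out the 11-day embryo took the count of 4 to 0, and leaving out the 15-day embryo took it to 1. limma on log2 ratios called 1 of the 5, mir-125a. The share called over all hairpins in these alternative fits is not given here.

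mir-125a had a 3p share of 1.50%, 1.12% and 1.11% in the embryos of 11, 15 and 17 days. Non-nervous tissues ran from 0.238% (testis, 2 of 841 reads) through 0.571% (kidney) to 0.765% (heart), and brain, spinal cord and eye had 0.550%, 0.522% and 0.318%. Every embryo lay above every other library. The log2 odds of 5p against 3p, embryo over non-nervous, differed by -1.15 ± 0.29 (SE; edgeR adjusted p = 0.0068), and without the 11-day embryo the adjusted p was 0.054.

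mir-100 had a 3p share of 1.73%, 1.34% and 0.893% in the embryos, from 76, 64 and 38 3p reads. The non-nervous tissues ran from 0 of 589 reads in liver, an exact interval up to 0.624%, through 0.345% in testis to 0.877% in salivary gland, each from at most 15 3p reads. Brain, spinal cord and eye had 0.679%, 0.631% and 0.308%. The embryos again lay above every other library, though the 17-day embryo only just, and the log2 odds differed by -1.50 ± 0.42 (SE; edgeR adjusted p = 0.011). This call was lost without the 11-day or without the 15-day embryo, with adjusted p up to 0.077.

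mir-99b had a higher 3p share than the other hairpins in every library but lung, where mir-99a was higher. Its share was 6.37%, 5.37% and 4.33% in the embryos, 3.18%, 2.18% and 2.76% in brain, spinal cord and eye, and 1.83% (heart) through 2.94% (smooth muscle) to 4.57% (testis, 10 of 219 reads) in non-nervous tissues. The 17-day embryo lay below testis and the other embryos above all tissues, and the log2 odds differed by -0.91 ± 0.29 (SE; edgeR adjusted p = 0.022). mir-125b had 2.47%, 2.09% and 1.63% in the embryos, 1.21%, 0.915% and 0.921% in brain, spinal cord and eye, and 0.410% (smooth muscle) through 1.08% (kidney) to 1.88% (salivary gland) in non-nervous tissues. Its log2 odds differed by -1.03 ± 0.36 (SE; edgeR adjusted p = 0.042), and 9 of 15 fits that left out 1 library lost the call. These 2 hairpins overlapped with the non-nervous range at day 17.

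mir-99a was the hairpin not called in embryos, although its log2 odds difference had the same sign as those called. Its 3p share was 1.65%, 2.18% and 2.32% in the embryos and 0.588%, 0.325% and 0.376% in brain, spinal cord and eye, while non-nervous tissues ran from 0.127% (smooth muscle, 2 of 1569 reads) through 0.804% (stomach) to 3.57% (lung, 375 of 10514 reads). Lung lay above every embryo, and the difference of -1.22 ± 0.55 (SE) did not pass (edgeR adjusted p = 0.12). Without lung it did, with an adjusted p of 0.029. For mir-99b, mir-100, mir-125a and mir-125b the 3p share was lower at each later stage, and for mir-99a it was higher, from 1 library a stage. The counting intervals of successive stages overlapped at both steps for mir-100 and mir-125a. For mir-99a they overlapped between the 15- and 17-day embryos.

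**Figure D4:**
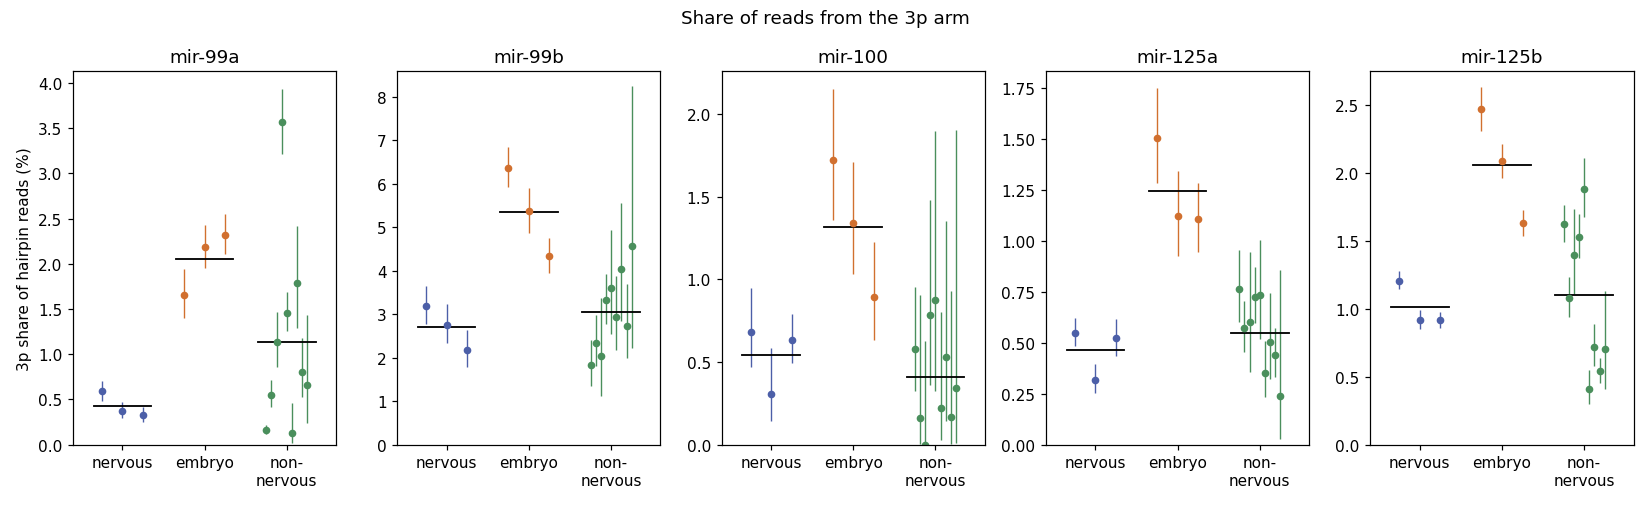
3p share of the hairpin's reads, in percent, for each of 5 hairpins, with 1 point per library in the groups nervous, embryo (in order of days) and non-nervous, exact 95% intervals for counting error as vertical lines and the group mean as a black bar; the axes differ between panels. The embryo points of mir-125a and mir-100 lie above all other points, and lung is the high non-nervous point of mir-99a at 3.57%.

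As a level, miR-99b-3p was at 203, 96.8 and 75.6 CPM in the embryos, above every other library, with 58.5, 37.7 and 68.4 CPM in brain, spinal cord and eye and 16.04 (liver) through 42.0 to 62.9 CPM (lung) in non-nervous tissues. The log2 difference, embryo over non-nervous, was 1.68 ± 0.46 (SE; edgeR adjusted p = 0.0070), and without the 11-day embryo the adjusted p was 0.17. miR-125a-3p, by contrast, was at 49.2, 28.3 and 30.4 CPM in the embryos, within the non-nervous range of 8.77 (testis) to 70.6 CPM (stomach), with 71.9, 46.9 and 37.8 CPM in brain, spinal cord and eye. The mesenchyme markers miR-199a-3p and miR-214-3p, summed, ran from 18896 to 23680 CPM in embryos, against 3079 to 10648 CPM in non-nervous tissues and 148 to 3865 CPM in nervous tissues, and their part in the embryo results was not tested.

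The strands of the chromosome 17 cluster, which lie within 692 bases, did not keep a fixed ratio. There were 1.08, 1.46 and 1.63 miR-125a-5p reads per miR-99b-5p read in the embryos of 11, 15 and 17 days, and 7.31, 5.30 and 4.91 in brain, spinal cord and eye. The non-nervous ratio was 3.87 in heart at the lowest, 5.01 in smooth muscle at the median and 8.30 in stomach at the highest. All 3 embryos lay below all 12 other libraries, with 95% counting intervals that do not reach the lowest tissue.

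On the log2 scale the ratio was 0.45 ± 0.31 in embryos and 2.30 ± 0.34 in non-nervous tissues (SD, n = 3 and 9), a difference of -1.85. The exact permutation test gave a two-sided p of 0.0091, the smallest it allows over 220 splits, because it doubles the smaller tail. After adjustment over 10 comparisons it was 0.091, so that in this form of the test this single comparison could not have passed alone. A form that does not double the tail is given in the closing section. Nervous tissues averaged 2.52 ± 0.30 (SD, n = 3), 0.22 over the non-nervous mean (exact permutation test, two-sided p = 0.373, adjusted 0.414). Of all 10 comparisons of shares and ratios, 0 passed in these exact permutation tests, and 3 had an unadjusted p under 0.05, all of embryos. Across all 15 libraries the log2 CPM of miR-99b-5p and miR-125a-5p gave a Pearson r of 0.50 (rho 0.46), and across the 12 libraries without embryos 0.92.

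**Figure D5:**
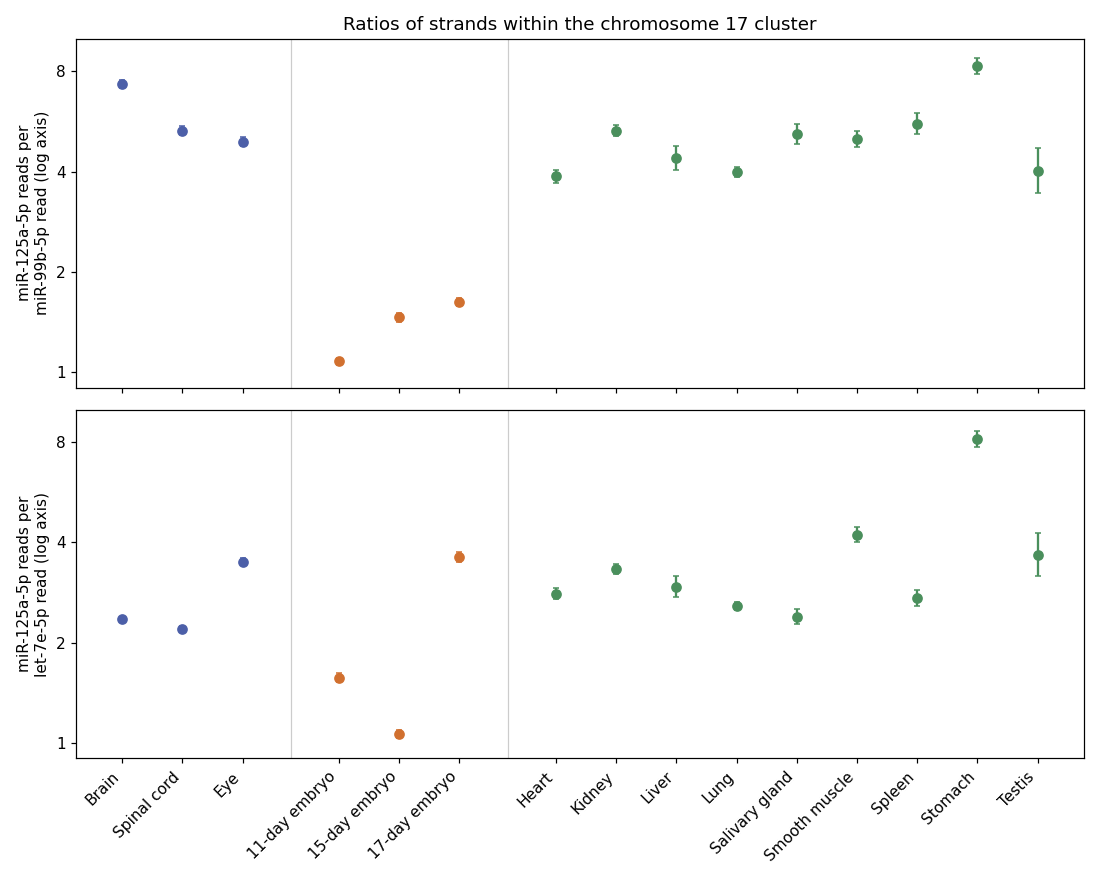
Reads of miR-125a-5p per read of miR-99b-5p (upper panel) and of let-7e-5p (lower panel) in each library, on log axes, with 95% intervals for counting error. Embryos lie at 1.08 to 1.63 in the upper panel, below every other library, and stomach is highest in both panels with 8.30 and 8.16.

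let-7e-5p lies between miR-99b and miR-125a. There were 1.57, 1.07 and 3.61 miR-125a-5p reads per let-7e-5p read in the embryos of 11, 15 and 17 days, and 2.35, 2.20 and 3.50 in brain, spinal cord and eye. Non-nervous tissues ran from 2.40 in salivary gland through 2.94 in liver to 8.16 in stomach. The 11- and 15-day embryos lay below all other libraries, while the 17-day embryo lay inside the range, and the log2 difference of -0.89 did not pass (exact permutation test, two-sided p = 0.064, adjusted 0.145).

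Of the let-7 5p family, 9 of 10 listed names could be tested. In embryos 6 were called lower, let-7a, let-7b, let-7c, let-7d, let-7f and let-7g, where 17.2% of all names were. let-7e-5p, let-7i-5p and miR-98-5p did not pass, and the list median was -2.47 on the log2 scale against 0.10 over all names. let-7e-5p, the cluster mate of miR-125a and miR-99b, had a log2 difference of -0.15 ± 0.50 (SE; edgeR adjusted p = 0.83), and 2048, 2337 and 753 CPM in the embryos against 1004 (testis) to 3025 CPM (heart) in non-nervous tissues. With total counts 5 of the 6 lower calls held, where 6.06% of all names were called lower. There let-7d-5p missed the threshold (edgeR adjusted p = 0.097), and let-7e-5p turned positive at 1.27 (edgeR adjusted p = 0.047). let-7c-5p, made in part from the miR-99a cluster, differed by -2.92 ± 0.56 (SE; edgeR adjusted p = 5.5e-04) and let-7a-5p, made in part from the miR-100 cluster, by -2.47 ± 0.53 (SE; edgeR adjusted p = 0.0013). In these clusters miR-99a-5p and miR-100-5p differed by -1.03 and 0.33 without passing (edgeR adjusted p = 0.25 and 0.66). In nervous tissues 0 of the 9 let-7 names were called, where 41% of all names were. Only let-7e-5p had an unadjusted edgeR p under 0.05, with a log2 difference of 1.19 ± 0.47 (SE; edgeR adjusted p = 0.053; DESeq2 adjusted p = 0.025). Its level was 5527, 4064 and 3381 CPM in brain, spinal cord and eye, above every non-nervous tissue.

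The 684 non-member names tested were ranked by likeness to each 5p member in log2 CPM over the 15 libraries. The most alike were miR-1a-3p for miR-99a-5p (Pearson r 0.71, rho 0.53) and miR-3102-3p for miR-99b-5p (0.76, rho 0.76) and miR-125b-5p (0.88, rho 0.84). For miR-100-5p they were let-7a-2-3p (0.80, rho 0.74) and miR-504-5p (0.80, rho 0.88), and for miR-125a-5p miR-700-5p (0.87, rho 0.90). let-7a-2-3p is the 3p strand of the let-7 hairpin in the miR-100 cluster and had 76 reads in all libraries. miR-1a-3p is a muscle miRNA that was highest in heart, where miR-99a-5p was highest too.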

How the data were processed

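The deposited files list raw whole-number counts of reads by mature miRNA name, 1 file a library. The submitters' processing notes name bcl2fastq 1.8.4, cutadapt, BWA, bedtools and the build mm10; what each was used for, the miRNA annotation and the handling of multi-mapping reads are not stated there. Names not listed in a library were taken as 0. Levels were tested with edgeR 4.0.16 (quasi-likelihood, R 4.3.3) over all 15 libraries after filterByExpr and TMM; the filter removed 13.1% of testis reads and at most 0.215% of others. Arm usage was fitted likewise to the counts of both arms, with library and arm terms, where 8 or more libraries held 20 or more reads of the hairpin. p-values were adjusted by Benjamini-Hochberg over all names or hairpins, threshold 0.05. Log2 ratios used a pseudocount of 0.5. Shares and ratios were compared with two-sided exact permutation tests, 10 in all, adjusted together. The edgeR level fit and the edgeR arm fit were tested on simulated data with changes placed in the nervous libraries only. Alternatives were DESeq2 1.42.0 and its size factors, total counts, no low-count filter, limma 3.58.1, fewer libraries and each library left out.

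Named in the text are the 9 members, the other arms, the let-7 names of the clusters and of the let-7 list, other names with a member's seed, and names most correlated with each 5p member. Members and lists were chosen with earlier results of these data known. Depth was 148052 to 3161463 reads per library, so that testis shares of rare strands are the least precise.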

Additional observations from a re-analysis of the deposited data

Results flagged for a closer look

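In 7 of 19 measures over the 9 non-nervous tissues, 1 library stood apart from the rest by Dixon's test. For normally distributed values it flags about 1 in 20 by chance. The levels entered as CPM and not on the log2 scale, so that rate may not hold for them, and log2 levels were not tested. The measures share libraries and clusters, so the 7 are not independent. Heart stood apart for miR-99a-5p (22343 CPM), for its cluster mate miR-125b-2-3p (414 CPM) and for miR-100-5p (2186 CPM). Heart also had the lowest scaling factor, 0.449, and in unscaled CPM it still led the non-nervous tissues for miR-99a-5p (10031) and miR-125b-2-3p (186) but not for miR-100-5p, with 982 in heart and 1952 in testis. Stomach stood apart for miR-125a-5p (15896 CPM), for the log2 ratio of miR-125a-5p to miR-99b-5p (3.05) and for that to let-7e-5p (3.03), and the ratios do not depend on the scaling. Lung stood apart for the 3p share of mir-99a (3.57%, 375 of 10514 reads).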

How the results depend on the processing

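The count of members with a higher level in nervous tissues was 2. It was 3 with DESeq2, where 28.1% of all names were called higher, and 3 with total counts, where 32.6% were. It was 1 with DESeq2's size factors in edgeR, where 28.4% of all names were called higher. With only the 12 libraries compared it was also 1, where 25.9% were. With 1 library left out it was 0 to 3, against 21.5% (without brain) to 30.7% (without heart) of all names. In embryos that count was 2 where 27% of all names were called higher, and 4 with total counts where 41.4% were. With 1 library left out it was 0 to 2, against 22.4% (without the 11-day embryo) to 30.3% (without testis) of all names. The count of hairpins with another arm usage in embryos was 4, where 20.1% of all hairpins were called. It was 1 with limma and 0 to 5 with 1 library left out, and the share over all hairpins in those fits is not given here. The nervous difference in miR-99b share was 0.32 points without testis and smooth muscle, and -3.33 to 0.66 with 1 library left out. The cause was not tested.

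The permutation test doubles the smaller tail. With the absolute difference as the statistic, chosen after seeing the data, the embryo difference of -1.85 in the miR-125a to miR-99b ratio had an exact permutation p of 0.0045 and passed, at an adjusted p of 0.045; no other comparison changed its call.

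Differences that did not pass in the report turned sign as follows. In nervous tissues miR-99a-5p gave -0.081 without testis and smooth muscle and -0.065 to 0.65 with 1 library left out. mir-99b arm usage gave -0.039 to 0.24 and mir-125b arm usage -0.12 to 0.15 with 1 library left out, and mir-125b -0.034 with limma. In embryos total counts gave 0.51 for miR-99a-5p, 0.094 for miR-125a-5p, 1.41 for miR-125a-3p, 1.03 for miR-125b-5p and 1.42 for miR-125b-2-3p. miR-125a-3p gave 0.19 without the filter, 0.048 with the 12 libraries and -0.49 to 0.10 with 1 library left out, and miR-125b-2-3p 0.095 without the filter and -0.42 to 0.32 with 1 left out. The cause was not tested.

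No paired analysis was possible because the replicate numbers only name libraries of different tissues. Testis, with the fewest reads, limits the precision of the rare 3p strands.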
